A study of Mus musculus with 12 samples.

Results

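The Wnt and R-spondin genes described here are 9 genes of the 38127 counted in each of 12 RNA-seq libraries of sorted mouse FL (fetal liver) cells: the secreted ligands *Wnt2*, *Wnt9b*, and *Rspo3*, the receptors *Lgr4* and *Lgr5*, the feedback genes *Axin2* and *Znrf3*, and the nuclear factors *Lef1* and *Tcf7l2*. They were chosen by gene name for their place in the pathway, and each name matched 1 identifier. All embryos were C57BL/6, and all cells were Ter119-CD45-, which leaves out mature erythrocytes and most leukocytes. Each of the 4 groups had 3 libraries. P2 cells (Kit+CD24+ among the CD54-CD31- cells of E14.5 FL) are described by the study as erythroid progenitors. CD54+CD31- cells of E14.5 FL are called CD324+ cells here, after the study, which takes them to include hepatoblasts. CD31+ cells (CD54+CD31+, E14.5) are endothelial cells, and the E18.5 group was gated as CD54+CD31- like the CD324+ cells. The groups are gates and not pure cell types, and the labels give no mutation or treatment for any of them.

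Wnt proteins bind Frizzled receptors with their coreceptors Lrp5 and Lrp6, which spares β-catenin from degradation, so that it enters the nucleus and activates genes with transcription factors of the TCF/LEF family. The ubiquitin ligases Znrf3 and Rnf43 remove Frizzled receptors from the cell surface, and R-spondins, held by Lgr4 or Lgr5, prevent that removal and so raise the response to Wnt. In the liver, endothelial cells are a known source of Wnt2, Wnt9b, and Rspo3, and hepatocytes near the central vein are known for their response.

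In GRCm38 the ligand genes lie on chromosome 6 from 17988940 to 18030585 (*Wnt2*, ENSMUSG00000010797), chromosome 11 from 103727364 to 103749821 (*Wnt9b*, ENSMUSG00000018486), and chromosome 10 from 29452416 to 29535867 (*Rspo3*, ENSMUSG00000019880). *Lgr4* (ENSMUSG00000050199) lies on chromosome 2 from 109917647 to 110014257 and *Lgr5* (ENSMUSG00000020140) on chromosome 10 from 115450311 to 115587780. *Axin2* (ENSMUSG00000000142) and *Znrf3* (ENSMUSG00000041961) lie on chromosome 11, from 108920349 to 108950783 and from 5276324 to 5444847. *Lef1* (ENSMUSG00000027985) lies on chromosome 3 from 131110471 to 131224356, and *Tcf7l2* (ENSMUSG00000024985) on chromosome 19 from 55741820 to 55933654. All 9 are protein coding. *Rspo3*, *Lef1*, and *Tcf7l2* overlap another annotated gene on their own strand (*Gm20276*, *Gm42449*, and *Ppnr*), and *Rspo3*, *Lgr5*, *Axin2*, and *Lef1* overlap an antisense gene (*Gm48159*, *A930009A15Rik*, *Gm11670*, and *Gm43352*). The strand setting of the counting was not given in the sources used here, so reads of these overlaps cannot be assigned with certainty.

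RefSeq promoter sequences (GRCm38.p6) were given for 6 of the 9 genes. Those of *Wnt2* and *Wnt9b*, which were highest at E14.5 in CD31+ cells, are shown with those of *Lgr4* and *Axin2*, which were highest in CD324+ cells, as the 250 bases before the start annotated in RefSeq, 5′ to 3′. *Wnt2* is chr6:18030446-18030695 and *Wnt9b* is chr11:103749822-103750071, both on the minus strand, and *Lgr4* is chr2:109917397-109917646 and *Axin2* is chr11:108920099-108920348, both on the plus strand.
Wnt2: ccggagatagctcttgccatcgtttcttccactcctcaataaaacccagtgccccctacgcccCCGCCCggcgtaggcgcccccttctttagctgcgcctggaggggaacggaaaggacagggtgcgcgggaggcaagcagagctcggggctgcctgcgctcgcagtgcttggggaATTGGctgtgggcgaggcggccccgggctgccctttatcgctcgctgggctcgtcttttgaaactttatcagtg
Wnt9b: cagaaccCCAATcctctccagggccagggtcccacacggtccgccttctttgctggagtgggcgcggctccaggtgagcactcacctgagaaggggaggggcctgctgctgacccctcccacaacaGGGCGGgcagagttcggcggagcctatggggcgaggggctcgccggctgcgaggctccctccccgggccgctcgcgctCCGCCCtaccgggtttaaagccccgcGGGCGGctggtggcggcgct
Lgr4: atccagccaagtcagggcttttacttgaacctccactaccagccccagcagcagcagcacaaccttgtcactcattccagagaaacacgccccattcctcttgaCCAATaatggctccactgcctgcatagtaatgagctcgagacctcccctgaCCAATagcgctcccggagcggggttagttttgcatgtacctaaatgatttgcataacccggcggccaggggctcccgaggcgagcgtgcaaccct
Axin2: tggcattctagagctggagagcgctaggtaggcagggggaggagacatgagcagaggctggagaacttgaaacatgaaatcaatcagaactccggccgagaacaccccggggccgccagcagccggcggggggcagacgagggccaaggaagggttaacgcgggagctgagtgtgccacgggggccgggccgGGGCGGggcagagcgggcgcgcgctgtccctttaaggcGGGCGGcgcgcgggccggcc
Capitals mark matches on either strand to the CCAAT box (CCAAT) or the GC box (GGGCGG). The *Wnt2* window held 1 CCAAT box and 1 GC box, the *Wnt9b* window 1 and 3, the *Lgr4* window 2 and 0, and the *Axin2* window 0 and 2. Of 32851 promoter windows of this length, 33.8% held a CCAAT box and 32.7% a GC box. None of the 4 windows matched the TCF/LEF letters searched (CTTTGAA or CTTTGAT, or else CTTTGTA or CTTTGTT, held by 14.8% of the windows) or the ETS letters CCGGAA (held by 12%), which says only that these letters are not in these bases. Among the windows of *Lef1* and *Tcf7l2*, which are not shown, chr3:131156044-131156293 and chr19:55895071-55895320 each held 1 TCF/LEF match.

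Levels are CPM, counts scaled to a common library size with TMM factors over all 12 libraries, and CPM per kilobase of exon where genes are compared with each other. Total counts were between 40714017 and 64368883 per library, and the 3 most abundant genes held 13.0% to 24.4% of them. The E14.5 gates carried their markers: 12 hepatoblast genes including *Alb* and *Afp* summed to 68400 to 77500 CPM in CD324+ libraries and to at most 919 elsewhere at E14.5, 12 endothelial genes including *Pecam1* and *Cdh5* to 11100 to 11300 CPM in CD31+ libraries, and 10 erythroid genes including *Klf1* and *Gata1* to 2940 to 3250 CPM in P2 libraries. The erythroid sum was 575 to 935 CPM in CD324+ and 362 to 494 in CD31+ libraries, at a median of 14.4% and 13.3% of the P2 level per gene, and *Slc4a1* of that list had a higher mean in CD324+ (206 CPM) than in P2 libraries (127). *Alas2* of the erythroid list was at 0 counts in every library, so a gene at 0 is not read as absent from the cells. The endothelial sum was 78.0, 505, and 142 CPM in P2 replicates 1, 2, and 3, and 99.2 to 116 in CD324+ libraries. The E18.5 libraries went against their label: 12 lung epithelial genes summed to 27100, 12700, and 12900 CPM, against 91.6 to 270 at E14.5, and *Sftpc*, which encodes a lung surfactant protein, had 5570 to 13400 CPM against at most 1.59. E18.5 replicate 1 stood apart, with a hepatoblast sum of 6640 CPM against 40300 and 52300 in replicates 2 and 3. Not all of that list followed its sum. *Dlk1* (1480 against 861 and 929 CPM), *Krt8* (219 against 162 and 180), and *Krt18* (333 against 246 and 275) were highest in replicate 1. The same held for *Epcam* (127 against 84.1 and 79.7) and *Cdh1* (1020 against 731 and 773). The E18.5 group is therefore called by its gate, and its results are given with and without replicate 1.

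The ligands *Wnt2* and *Rspo3* were highest at E14.5 in CD31+ cells, and so was *Wnt9b*, whose level was lower. *Wnt2* had 4.61, 4.77, and 2.44 CPM in the 3 CD31+ libraries, 0.713, 0.434, and 0.407 in CD324+ libraries, and 0.0972, 0.346, and 0.126 in P2 libraries. Every CD31+ library was above every other E14.5 library, and the lowest CD324+ library was above the highest P2 library. The log2 fold change of CD31+ against CD324+ cells was 2.90 (SE 0.46, edgeR adjusted p = 0.000262), that of P2 against CD31+ cells -4.54 (SE 0.51, edgeR adjusted p = 1.6e-05), and that of P2 against CD324+ cells -1.64 (SE 0.53, edgeR adjusted p = 0.0184). The last call was lost without CD324+ replicate 1 (-1.33, edgeR adjusted p = 0.0734), P2 replicate 1 (0.0563), or P2 replicate 3 (0.0668), and over its 15 alternatives the adjusted p was 0.00211 to 0.0734. Without P2 replicate 2, the P2 library with the highest endothelial sum and the highest *Wnt2*, it was -2.40 (edgeR adjusted p = 0.00211).

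*Rspo3*, which encodes the R-spondin of the set, had 8.88, 7.91, and 4.56 CPM in CD31+ libraries, 1.53, 2.52, and 2.81 in CD324+ libraries, and 1.14, 1.02, and 0.546 in P2 libraries. The groups did not overlap, and replicate 3 was the lowest CD31+ library for *Rspo3* as for *Wnt2*. *Rspo3* was higher in CD31+ than in CD324+ cells by a log2 fold change of 1.62 (SE 0.35, edgeR adjusted p = 0.00226). In P2 cells it was lower, with -3.18 against CD31+ cells (SE 0.38, edgeR adjusted p = 2.61e-05) and -1.56 against CD324+ cells (SE 0.38, edgeR adjusted p = 0.00375).

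*Wnt9b* had 1.12, 1.69, and 1.20 CPM in CD31+ libraries, 0.0792, 0.289, and 0.0679 in CD324+ libraries (3, 10, and 3 counts), and 0, 0.0432, and 0.021 in P2 libraries (0, 2, and 1 counts, where the count of 0 allows up to 0.0729 CPM). It passed the low count filter at E14.5 only through the CD31+ libraries, so a difference from them was built into its being tested. Its log2 fold change in CD31+ against CD324+ cells was 3.20 (SE 0.62, edgeR adjusted p = 0.00102). Between P2 and CD31+ cells the ratio of normalized counts was 60.0-fold lower in P2 cells (3 against 250 counts, 95% counting interval 20.3 to 293), and between P2 and CD324+ cells 6.17-fold lower (3 against 16 counts, interval 1.77 to 33.1). The latter difference passed the test (log2 fold change -2.75, SE 0.90, edgeR adjusted p = 0.0187) but was lost without CD324+ replicate 2 (-1.84, edgeR adjusted p = 0.103), P2 replicate 1 (0.0504), or P2 replicate 3 (0.0539), with a range of 0.0106 to 0.103 over 14 alternatives.

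Endothelial transcripts in CD324+ libraries stood at a median of 0.446% of their CD31+ level (0.331% to 4.02% over 12 genes), while *Wnt2* stood at 13.1%, *Wnt9b* at 10.8%, and *Rspo3* at 32.0% of theirs. In P2 cells the endothelial median was 2.22% (2.00% to 3.19%), beside 4.82% for *Wnt2*, 1.60% for *Wnt9b*, and 12.7% for *Rspo3*. In sorted bulk samples, fewer cells of a type and less RNA per cell cannot be told apart. Per kilobase of exon, *Rspo3* (2.30 ± 0.734, SD, n = 3) and *Wnt2* (1.75 ± 0.577, SD, n = 3) had levels that overlapped within their SD in CD31+ cells, and *Wnt9b* had 0.296 ± 0.0678 (SD, n = 3).

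**Figure D1:**
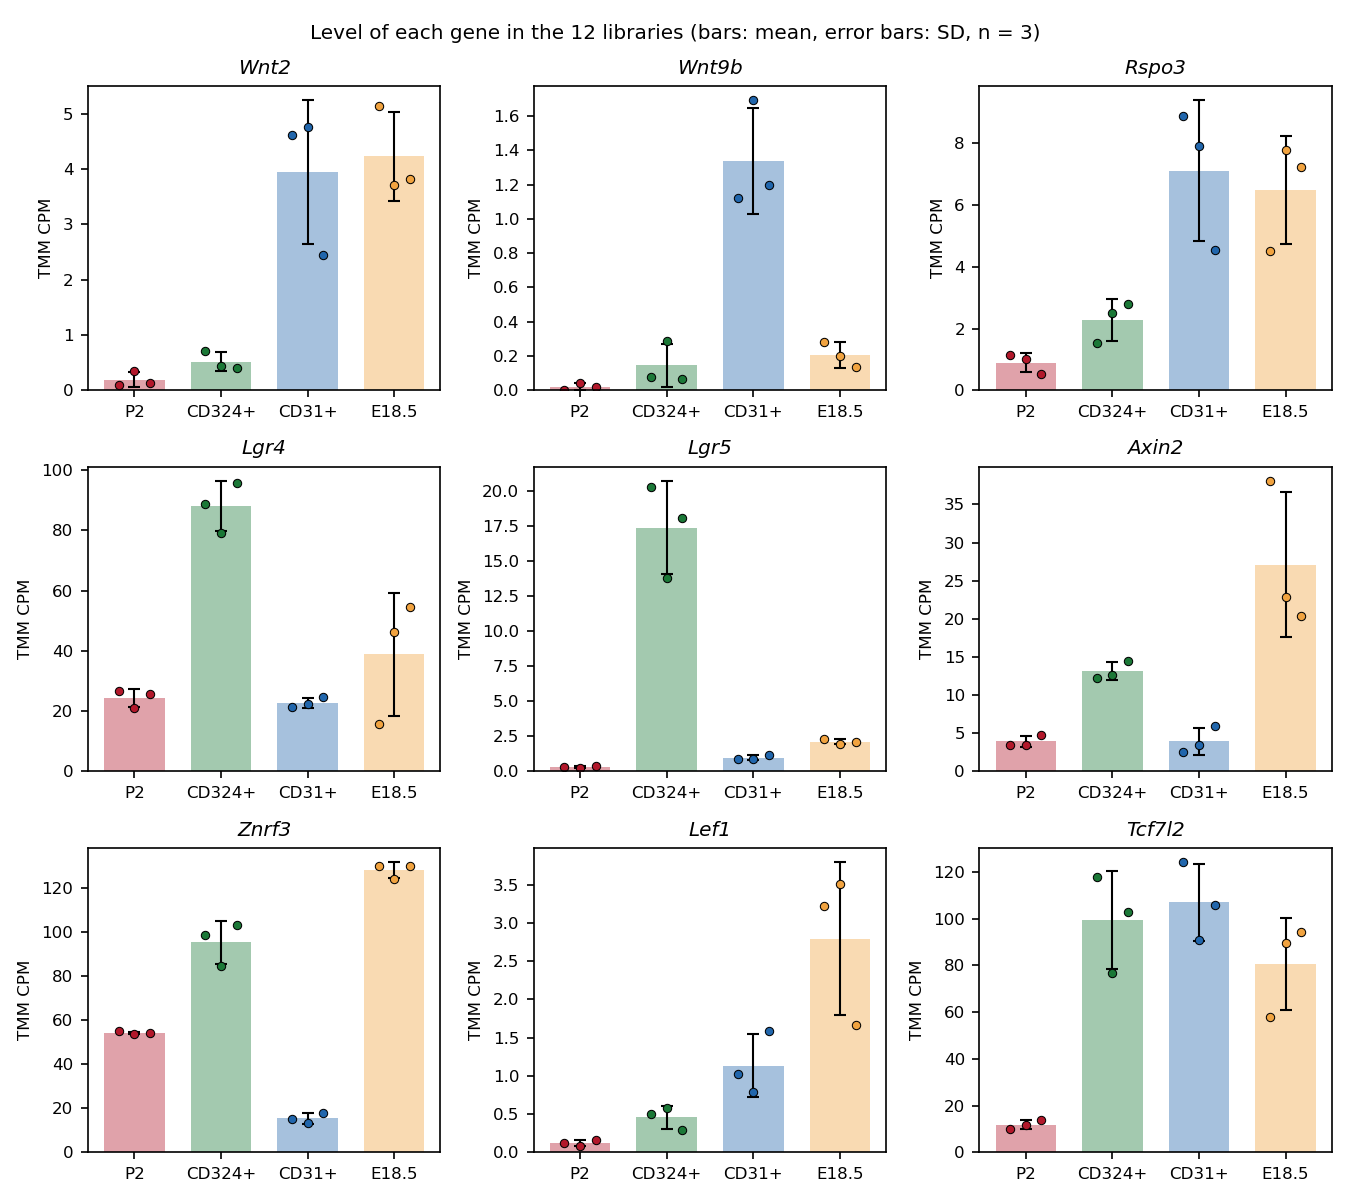
TMM-normalized CPM (linear axes from 0, scaled per gene) of the 9 Wnt and R-spondin genes in P2, CD324+, and CD31+ cells of E14.5 FL and in E18.5 CD54+CD31- cells, with a point per library (replicates 1 to 3 from left to right), bars for the mean and error bars for the SD (n = 3, cut at 0). *Wnt9b* reaches 1.12 CPM or more only in CD31+ libraries, *Lgr5* 13.8 CPM or more only in CD324+ libraries, and *Lgr4* in E18.5 replicate 1 lies at 15.8 CPM, below replicates 2 and 3 at 46.2 and 54.5.

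Both R-spondin receptors were highest in CD324+ cells. *Lgr5* had 20.3, 13.8, and 18.1 CPM in CD324+ libraries, 0.888, 0.868, and 1.20 in CD31+ libraries, and 0.340, 0.259, and 0.420 in P2 libraries, with no overlap between any pair of groups. It was lower in CD31+ than in CD324+ cells by a log2 fold change of -4.16 (SE 0.22, edgeR adjusted p = 7.79e-08), lower in P2 than in CD324+ cells by -5.89 (SE 0.26, edgeR adjusted p = 1.3e-08), and lower in P2 than in CD31+ cells by -1.73 (SE 0.26, edgeR adjusted p = 0.000134). Hepatoblast markers stood at a median of 1.34% of their CD324+ level in CD31+ cells (1.08% to 15.8% over 12 genes) and at 1.12% in P2 cells (0.949% to 16.8%), beside 5.66% and 1.95% for *Lgr5*.

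*Lgr4*, the more widely expressed receptor of the pair, had 88.8, 79.3, and 95.8 CPM in CD324+ libraries, 21.4, 22.4, and 24.6 in CD31+ libraries, and 26.6, 20.9, and 25.8 in P2 libraries. The CD31+ and P2 libraries overlapped, at 25.9% and 27.7% of the CD324+ mean, and both groups lay below every CD324+ library. The log2 fold change against CD324+ cells was -1.97 in CD31+ cells (SE 0.11, edgeR adjusted p = 1.26e-07) and -2.07 in P2 cells (SE 0.11, edgeR adjusted p = 7.51e-08). Between P2 and CD31+ cells no difference passed the test (-0.10, 95% interval -0.35 to 0.14, edgeR adjusted p = 0.418), although it did with the authors' normalization factors (-0.48, edgeR adjusted p = 0.00207, within a range of 0.00207 to 0.973 over 16 alternatives). Per kilobase of exon, the level of *Lgr4* in CD324+ cells was 14.9 ± 1.41 (SD, n = 3) and that of *Lgr5* 1.70 ± 0.325 (SD, n = 3), and *Lgr4* was above *Lgr5* by this measure in each of the 4 groups.

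Both feedback genes were highest at E14.5 in CD324+ cells. *Axin2*, a scaffold of the β-catenin destruction complex that is itself a widely used target of the pathway, had 12.3, 12.6, and 14.5 CPM in CD324+ libraries, 2.56, 3.41, and 5.92 in CD31+ libraries, and 3.47, 3.52, and 4.79 in P2 libraries. The CD324+ libraries were above all others at E14.5, and the CD31+ and P2 libraries overlapped. *Axin2* was lower than in CD324+ cells by a log2 fold change of -1.75 in CD31+ cells (SE 0.27, edgeR adjusted p = 0.000243) and of -1.97 in P2 cells (SE 0.28, edgeR adjusted p = 9.56e-05). Between P2 and CD31+ cells its difference was -0.22 (95% interval -0.82 to 0.39, edgeR adjusted p = 0.494).

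*Znrf3*, which encodes the ubiquitin ligase that removes Frizzled receptors, had 98.7, 84.4, and 103 CPM in CD324+ libraries, 54.9, 53.7, and 54.0 in P2 libraries, and 15.0, 13.3, and 18.1 in CD31+ libraries. It separated the 3 E14.5 groups without overlap, and P2 cells lay between the other groups. It was lower in CD31+ than in CD324+ cells by a log2 fold change of -2.65 (SE 0.12, edgeR adjusted p = 2.82e-08), lower in P2 than in CD324+ cells by -1.04 (SE 0.12, edgeR adjusted p = 1.84e-05), and higher in P2 than in CD31+ cells by 1.61 (SE 0.12, edgeR adjusted p = 8.37e-07). *Znrf3* was the only gene of the 9 that was higher in P2 than in CD31+ cells by this test, at 56.8% of its CD324+ level, against a hepatoblast marker median of 1.12%. Its paralog *Rnf43*, named after its values were seen, had 103, 85.2, and 96.1 CPM in CD324+ libraries, 10.7, 8.21, and 7.97 in P2 libraries, and 4.11 to 5.40 in CD31+ libraries, a log2 fold change in P2 cells of -3.62 against CD324+ cells (SE 0.15, edgeR adjusted p = 1.09e-08) and of 0.69 against CD31+ cells (SE 0.15, edgeR adjusted p = 0.00153). The latter call was lost with the authors' factors (0.31, edgeR adjusted p = 0.0951).

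Both nuclear factors were lower in P2 cells than in the other E14.5 groups. *Tcf7l2*, the TCF factor of the set, had 118, 76.6, and 103 CPM in CD324+ libraries, 124, 90.8, and 106 in CD31+ libraries, and 10.2, 11.9, and 13.7 in P2 libraries. The CD324+ and CD31+ libraries overlapped, with a log2 difference of 0.08 (95% interval -0.29 to 0.46, edgeR adjusted p = 0.674), and every P2 library was below them all. In P2 cells *Tcf7l2* was lower by -3.28 on the log2 scale against CD324+ cells (SE 0.19, edgeR adjusted p = 9.65e-08) and by -3.36 against CD31+ cells (SE 0.19, edgeR adjusted p = 1.32e-07). When counts were scaled by library total alone, *Tcf7l2* was higher in CD31+ than in CD324+ cells (0.59, edgeR adjusted p = 0.0099, within a range of 0.0099 to 0.914 over 16 alternatives), a scaling that also moved the median of all genes by 0.49.

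*Lef1* had 1.02, 0.786, and 1.59 CPM in CD31+ libraries, 0.502, 0.578, and 0.294 in CD324+ libraries, and 0.121, 0.0864, and 0.168 in P2 libraries. Its libraries did not overlap between groups, but the levels were low. It was higher in CD31+ than in CD324+ cells (log2 fold change 1.29, SE 0.43, edgeR adjusted p = 0.0223), a call lost without CD324+ replicate 3 (1.04, edgeR adjusted p = 0.0881) or CD31+ replicate 3 (0.90, edgeR adjusted p = 0.131), within a range of 0.00365 to 0.131 over 15 alternatives. In P2 cells it was lower by -2.06 against CD324+ cells (SE 0.50, edgeR adjusted p = 0.0037) and by -3.34 against CD31+ cells (SE 0.48, edgeR adjusted p = 0.000106). Per kilobase of exon, the level of *Tcf7l2* in CD31+ cells was 12.2 ± 1.88 (SD, n = 3) and that of *Lef1* 0.129 ± 0.0468 (SD, n = 3).

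Counted over the 9 genes, all were lower in P2 than in CD324+ cells, where 36.1% of the 15461 genes tested were lower and 33.8% higher. The median log2 fold change of the 9 genes was -2.06, against -0.01 for all genes tested. *Wnt9b*, tested only because of the CD31+ libraries, is left out of the counts against them. Of the other 8, P2 cells had lower levels than CD31+ cells for 5, 1 was higher (*Znrf3*), and 2 did not pass the test (*Lgr4* and *Axin2*), where 39.4% of all genes were lower and 34.3% higher, and the medians were -2.45 and -0.13. Between CD31+ and CD324+ cells, 3 of the 8 were higher in CD31+ cells (*Wnt2*, *Rspo3*, and *Lef1*), 4 were lower (*Lgr4*, *Lgr5*, *Axin2*, and *Znrf3*), and *Tcf7l2* did not pass, where 31.7% of all genes were higher and 34.0% lower. These 3 comparisons share their libraries and are not independent of each other. The balance of all calls moved with the scaling. Upward calls in P2 relative to CD324+ cells made up 48.3% of the calls with TMM, 59.9% with library totals alone, and 38.2% with the authors' factors. Relative to CD31+ cells they made up 46.6%, and 33.9% with the authors' factors. Upward calls in CD31+ relative to CD324+ cells made up 48.3%, and 71.4% with library totals alone.

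**Figure D2:**
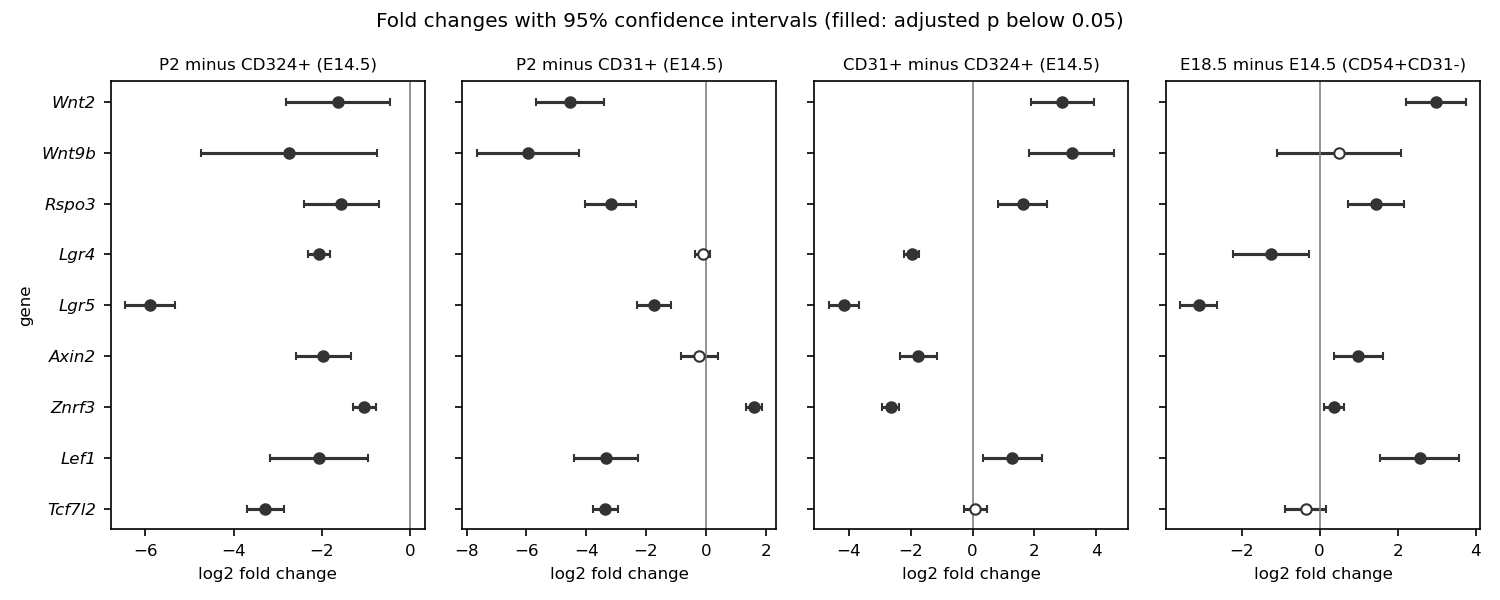
Log2 fold changes (x axis) of the 9 genes in the 4 comparisons, from edgeR, with 95% confidence intervals, where filled points passed an adjusted p of 0.05 and open points did not. All 9 points lie below 0 for P2 against CD324+ cells, while for CD31+ against CD324+ cells the ligands lie between 1.62 and 3.20 and the receptors at -1.97 and -4.16.

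Between E14.5 and E18.5, the CD54+CD31- cells had higher levels of *Wnt2*, *Rspo3*, *Axin2*, *Znrf3*, and *Lef1*, and lower levels of *Lgr4* and *Lgr5*. Of all 15863 genes tested here, 35.9% were higher and 33.5% lower at E18.5, and 51.7% of the calls were higher, or 68.4% with library totals alone. *Wnt9b* would not have passed the low count filter by age without the E18.5 libraries. Over the other 8 genes the median log2 fold change was 0.68, against 0.03 over all genes. The lung epithelial sum was 12700 to 27100 CPM at E18.5 against 152 to 168 in the E14.5 libraries of this comparison. The hepatoblast sum was lower, at 6640 to 52300 CPM against 68400 to 77500. *Epcam* (mean 96.9 against 1.16 CPM) and *Cdh1* (842 against 427) of that list were higher. The erythroid sum was also lower, at 158 to 394 CPM against 575 to 935. Mesothelial genes including *Msln* and *Upk3b* summed to 672 to 1120 CPM against 4.44 to 8.24, and endothelial genes to 265 to 330 against 99.2 to 116. *Stab1* of the endothelial list went the other way, at a mean of 34.9 against 52.6 CPM. *Foxj1* of the lung epithelial list was at 9.0 against 9.84. In the next lists single members also went apart. The mesenchymal sum was 4560 to 4740 CPM against 1070 to 1140, with *Col1a1* at a mean of 1800 against 44.2 CPM, while *Reln*, most of the E14.5 sum, was at 217 against 947. The lung mesenchymal sum was 912 to 1660 CPM against 144 to 166, mostly *Limch1* (542 against 1.79) and *Npnt* (504 against 7.17) at E18.5 and *Plin2* (51.6 against 139) at E14.5, with *Tbx4* at 7.38 against 0.0511 CPM. The sum of the 9 macrophage genes counted was 369 to 620 CPM against 116 to 190, of which *Lyz2*, a lysozyme gene also expressed in lung epithelium, had 337 against 21.5, whereas *Ptprc* (11.0 against 10.9), *Adgre1* (14.3 against 21.9), and *Csf1r* (37.9 against 42.1) stood near or below their E14.5 means. *Clec4f* (16.3 against 1.43) and *Vsig4* (2.61 against 0.296) of the macrophage list were higher at E18.5. *Cd68* (6.22 against 7.05), *Cd5l* (28.1 against 34.7), and *Fcgr1* (3.44 against 4.6) of that list were lower by mean. *Lrat* of the mesenchymal and *Foxf1* of the lung mesenchymal list were at 0 in every library. The part of these cells in the differences by age was not tested, and the age and the makeup of the libraries cannot be told apart.

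*Wnt2* had 5.15, 3.71, and 3.83 CPM in E18.5 libraries, all above the 0.407 to 0.713 of the E14.5 libraries. The log2 fold change was 2.97 (SE 0.32, edgeR adjusted p = 0.000245), and 2.78 without E18.5 replicate 1 (edgeR adjusted p = 5.73e-05). *Lef1* had 3.22, 3.51, and 1.66 CPM, also without overlap with E14.5, and a log2 fold change of 2.56 (SE 0.42, edgeR adjusted p = 0.00167), which was 2.43 without replicate 1. *Rspo3* had 4.50, 7.77, and 7.22 CPM, with a log2 fold change of 1.44 (SE 0.30, edgeR adjusted p = 0.00447), and 1.63 without replicate 1. *Wnt2* is known from lung mesenchyme as well as from liver endothelium. The gate leaves out CD31+ cells. In E18.5 libraries endothelial markers stood at a median of 2.92% of their CD31+ level (1.63% to 5.57% over 12 genes), and *Wnt2* at 107% of its own. Which cells carried *Wnt2* at E18.5 was not tested. For *Wnt9b* the libraries of the 2 ages overlapped (0.285, 0.198, and 0.137 CPM at E18.5), and the difference was 0.49 (95% interval -1.10 to 2.08, edgeR adjusted p = 0.537), or 0.17 without replicate 1.

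*Lgr5* had 2.33, 1.94, and 2.09 CPM at E18.5, far below the 13.8 to 20.3 at E14.5. The log2 fold change was -3.10 (SE 0.20, edgeR adjusted p = 3.68e-05), and -3.19 without replicate 1. *Lgr4* had 15.8, 46.2, and 54.5 CPM, below the 79.3 to 95.8 of E14.5 in each library. Its log2 fold change of -1.25 (SE 0.41, edgeR adjusted p = 0.0294) became -0.89 with a smaller p without replicate 1 (edgeR adjusted p = 9.66e-05). The call was lost in 6 of 15 alternatives, among them without each CD324+ replicate in turn (edgeR adjusted p = 0.078, 0.0571, and 0.0862 without replicates 1, 2, and 3) and without E18.5 replicate 2 (0.0515), with library totals alone (-0.84, 0.0902), and with the authors' factors (-1.02, 0.0528), over a range of 9.66e-05 to 0.0902.

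*Axin2* had 38.0, 22.9, and 20.4 CPM at E18.5 against 12.3 to 14.5 at E14.5, and E18.5 replicate 1 was the highest library. Its log2 fold change was 0.99 (SE 0.26, edgeR adjusted p = 0.0125), and 0.64 without that library (edgeR adjusted p = 0.00115). *Znrf3* had 130, 124, and 130 CPM, a smaller rise of 0.37 on the log2 scale (SE 0.11, edgeR adjusted p = 0.0184), and of 0.33 without replicate 1. That call was lost without CD324+ replicate 2 (0.27, edgeR adjusted p = 0.0628), without E18.5 replicate 3 (0.36, edgeR adjusted p = 0.0511), and in the fit of all 12 libraries (0.18, edgeR adjusted p = 0.162), over a range of 0.00107 to 0.162. *Tcf7l2* had 58.0, 89.7, and 94.2 CPM, which overlapped the E14.5 libraries (-0.36, 95% interval -0.90 to 0.17, edgeR adjusted p = 0.188), and it passed only in the fit of all 12 libraries (-0.54, edgeR adjusted p = 0.0321, in a range of 0.0321 to 0.825). Without E18.5 replicate 1 the same 7 genes passed in the same directions.

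E18.5 replicate 1 also differed from replicates 2 and 3 in the Wnt genes themselves. Its level was 0.314 times the mean of the other two for *Lgr4*, 0.600 for *Rspo3*, and 0.631 for *Tcf7l2*, and 1.76 times that mean for *Axin2*, 1.70 for *Wnt9b*, and 1.37 for *Wnt2*. *Znrf3* (1.03) and *Lgr5* (1.16) differed least. By the same measure *Alb* stood at 0.0777, *Cdh1* of the same hepatoblast list at 1.36, *Sftpc* at 2.33, and *Tbx4* at 2.41. The part of this makeup in the levels of the Wnt genes was not tested.

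**Figure D3:**
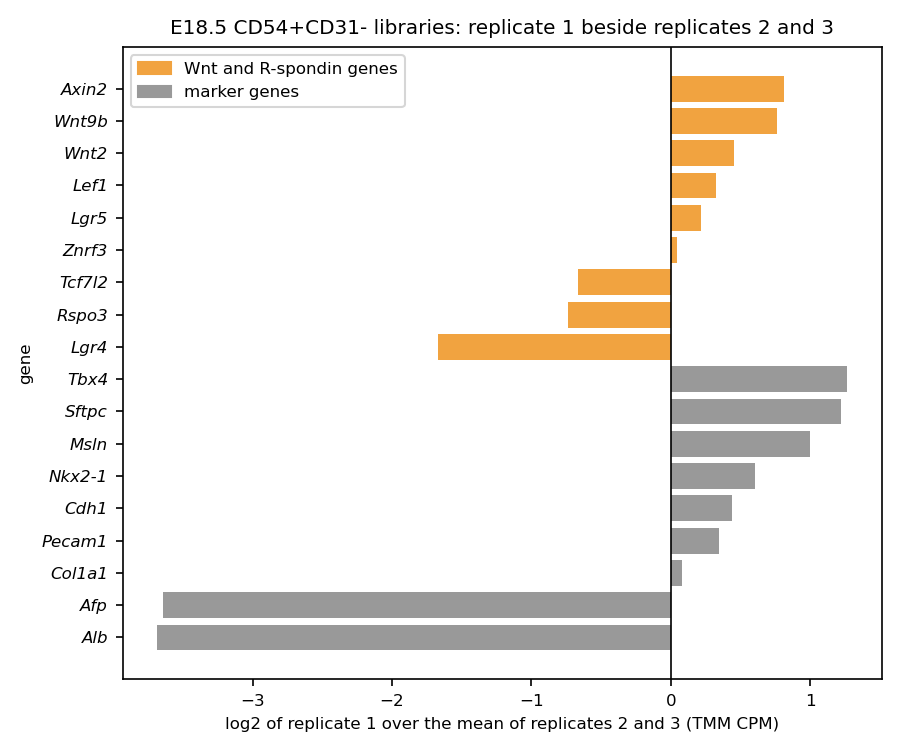
Log2 ratio (x axis) of TMM-normalized CPM in E18.5 replicate 1 to the mean of replicates 2 and 3, for the 9 Wnt and R-spondin genes (orange bars) and 9 marker genes (grey bars). *Lgr4* has the lowest ratio of the 9 genes (0.314) and *Axin2* the highest (1.76), beside 0.0777 for *Alb* and 2.33 for *Sftpc*.

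Across the 4 groups, the order of the mean levels was E18.5, CD31+, CD324+, and P2 for *Wnt2* and *Lef1*, and CD31+, E18.5, CD324+, and P2 for *Wnt9b* and *Rspo3*. It was CD324+, E18.5, P2, and CD31+ for *Lgr4*, CD324+, E18.5, CD31+, and P2 for *Lgr5*, E18.5, CD324+, CD31+, and P2 for *Axin2*, E18.5, CD324+, P2, and CD31+ for *Znrf3*, and CD31+, CD324+, E18.5, and P2 for *Tcf7l2*. With library totals alone, CD31+ cells came before E18.5 for *Wnt2* and before P2 cells for *Lgr4*, and E18.5 before CD324+ cells for *Tcf7l2*, and the authors' values changed the order of *Lgr4* in the same way. Neighbors in these orders whose libraries overlapped were E18.5 and CD31+ for *Wnt2* and *Rspo3*, E18.5 and CD324+ for *Wnt9b*, E18.5 and P2 as well as P2 and CD31+ for *Lgr4*, CD31+ and P2 for *Axin2*, and CD31+, CD324+, and E18.5 for *Tcf7l2*. *Lgr5*, *Znrf3*, and *Lef1* had no overlapping neighbors.

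In the wider pathway, 97 other genes in 7 roles were counted, and *Bcl9l*, like *Itgam* of the macrophage list, was left out because its name occurs under more than 1 identifier. Of these, 75 were tested at E14.5, and each count below leaves out the genes that passed the low count filter only through the group in which they were higher, which the shares over all genes still include. In P2 relative to CD324+ cells, 42 of 66 were lower and 10 higher (median log2 fold change -0.97), beside 36.1% lower and 33.8% higher of all genes tested (median -0.01). In P2 relative to CD31+ cells, 43 of 69 were lower and 11 higher (-0.93), beside 39.4% and 34.3% of all genes (-0.13). In CD31+ relative to CD324+ cells, 23 of 63 were higher and 23 lower (-0.11), close to the 31.7% and 34.0% of all genes (-0.03). Receptors and their partners were lower in P2 cells in 14 of 17 cases against CD324+ cells, beside 36.1% of all genes, and in 13 of 17 against CD31+ cells, beside 39.4%. *Fzd4*, a Frizzled receptor, had 2.41 to 7.06 CPM in P2, 30.5 to 35.0 in CD324+, and 128 to 165 in CD31+ libraries, while *Fzd7*, another, had 31.3 to 36.4, 43.2 to 50.3, and 3.29 to 4.91. These Frizzled genes differed between CD31+ and CD324+ cells in opposite directions, with log2 fold changes in CD31+ cells of 2.11 for *Fzd4* (SE 0.34, edgeR adjusted p = 0.000308) and -3.56 for *Fzd7* (SE 0.15, edgeR adjusted p = 1.5e-08). *Adgra2*, an adhesion receptor that serves Wnt7 signaling in endothelium, had 136 to 150 CPM in CD31+ libraries and at most 7.84 in the other E14.5 libraries. *Fzd9* passed the filter at E14.5 only through P2 libraries, where it had 0.631 to 1.07 CPM. It had at most 0.132 CPM in CD324+ libraries and 0.386, 0.0164, and 0.209 in CD31+ libraries.

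*Wls*, which carries Wnt proteins to the cell surface for secretion, was highest at E14.5 in CD31+ cells, as were the ligands. It had 64.4 to 68.2 CPM in CD31+, 2.72 to 4.57 in CD324+, and 5.28 to 7.63 in P2 libraries, a log2 fold change of 4.09 in CD31+ against CD324+ cells (SE 0.21, edgeR adjusted p = 5.47e-08). Among the inhibitors counted in this way, 3 of 8 were higher and 3 lower in CD31+ than in CD324+ cells, near the 31.7% and 34.0% of all genes. *Nkd1*, an inhibitor that is also induced by Wnt, had 8.33 to 14.5 CPM in CD31+ and 1.18 to 1.61 in CD324+ libraries, whereas *Dkk3* (0.868 to 1.53 against 31.4 to 33.0) and *Wif1* (0.0335 to 0.224 against 3.35 to 4.51) were higher in CD324+ cells. *Sost* had 1.04 to 2.72 CPM in CD31+ libraries and at most 0.0864 in the others at E14.5. *Wif1* was tested only because of the CD324+ and *Sost* only because of the CD31+ libraries. *Sfrp4* was the inhibitor that was higher in P2 cells, with 5.10 to 6.31 CPM against at most 0.702 in CD324+ and 0.213 in CD31+ libraries.

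Among the nuclear partners, *Tcf7l1* and *Tcf7* were lower in P2 cells like *Tcf7l2*, with 3.21 to 8.23 and 0.715 to 1.53 CPM. In CD31+ libraries *Tcf7l1* had 131 to 209 CPM against 56.6 to 79.2 in CD324+ libraries, and *Tcf7* 12.4 to 13.6 against 18.0 to 19.0. *Sox17*, an endothelial factor that can bind β-catenin, had 44.7 to 52.5 CPM in CD31+ libraries. In P2 libraries it had 0.534, 3.37, and 0.715 CPM, highest in the library with the highest endothelial sum. *Tle4*, a corepressor of TCF factors, was at 64.7 to 67.9 CPM in P2 libraries, above CD324+ (21.2 to 26.1) and below CD31+ libraries (90.3 to 102). *Axin1*, the paralog of *Axin2*, was highest in P2 libraries (108 to 112 CPM, against 56.8 to 62.6 in CD324+ and 44.5 to 51.4 in CD31+ libraries).

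Of 10 tested genes known as Wnt targets in liver or other tissues, *Cyp2e1*, *Cyp1a2*, *Rhbg*, and *Sp5* passed the filter only through CD324+ libraries. Of the other 6, 5 were lower in P2 than in CD324+ cells, beside 36.1% of all genes. In CD31+ relative to CD324+ cells, 2 of the 6 were lower, near the 34.0% of all genes, while 1 was higher and 3 did not pass. *Tbx3*, a transcription factor, had 54.0 to 63.1 CPM in CD324+ libraries and at most 1.29 in the other E14.5 libraries, and *Lect2*, a protein secreted by liver, 104 to 121 against at most 1.56. For 2 others of the 6 the CD324+ and CD31+ libraries overlapped. *Glul* had 243 to 271 CPM in CD324+ and 208 to 245 in CD31+ libraries, and *Slc1a2* 0.819 to 1.81 and 1.10 to 1.78. *Sp5*, a direct target in many tissues, had 1.25 to 1.35 CPM in CD324+ libraries and 0 counts in all 3 CD31+ libraries, and *Rhbg*, an ammonium transporter, had 1.36 to 2.35 CPM against at most 0.0972. *Cyp2e1*, known from hepatocytes near the central vein, had only 0.362 to 0.434 CPM in CD324+ libraries. *Myc*, a growth regulator expressed in many proliferating cells, went the other way, with 263 to 281 CPM in P2, 87.5 to 113 in CD31+, and 40.6 to 46.3 in CD324+ libraries. *Ccnd1*, a cell cycle gene, had 3.04 to 7.58 CPM in P2 libraries against 139 to 153 in CD324+ and 91.0 to 109 in CD31+ libraries. The hepatoblast sums given above were also highest in CD324+ libraries, and their part in these differences was not tested.

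**Figure D4:**
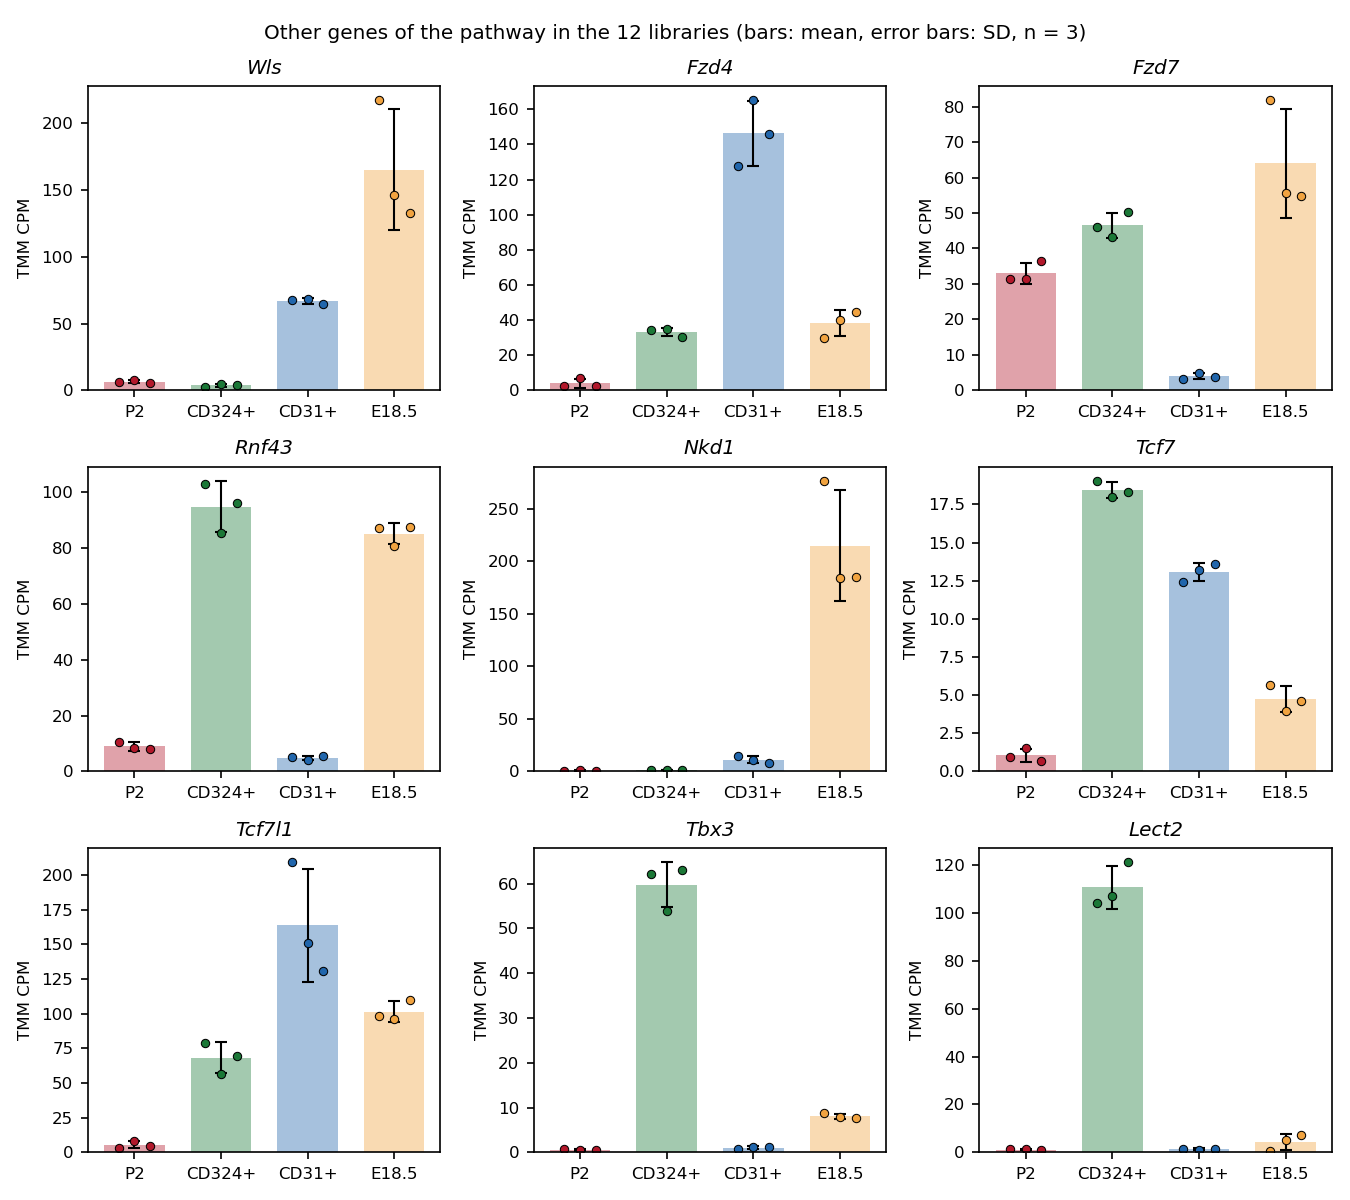
TMM-normalized CPM (linear axes from 0, scaled per gene) of 9 other pathway genes in the 4 groups, with a point per library, bars for the mean, and error bars for the SD (n = 3, cut at 0). *Wls*, *Fzd4*, and *Tcf7l1* are higher in CD31+ than in CD324+ libraries, and *Fzd7*, *Rnf43*, *Tbx3*, and *Lect2* are higher in CD324+ libraries.

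Of the other Wnt and R-spondin genes, 10 reached a mean of 1 CPM in some group. At E14.5 the highest was *Wnt5b*, with 9.27 to 11.6 CPM in P2 libraries, 2.97 to 4.11 in CD324+, and 3.10 to 3.87 in CD31+ libraries. P2 cells exceeded CD324+ cells by a log2 fold change of 1.28 (SE 0.19, edgeR adjusted p = 0.000132) and CD31+ cells by 1.39 (SE 0.19, edgeR adjusted p = 6.23e-05), so P2 cells, lowest for *Wnt2*, *Wnt9b*, and *Rspo3*, were highest for this ligand. *Wnt2b* had 2.26 to 3.49 CPM in CD31+, 1.38 to 1.77 in CD324+, and 0.875 to 1.17 in P2 libraries, and *Wnt16*, tested only because of the CD31+ libraries, had 0.404 to 0.486 CPM there and at most 0.146 in other E14.5 libraries. Of the 12 ligand genes tested by age, *Wnt3a*, *Wnt5a*, *Wnt7a*, *Wnt7b*, *Wnt10b*, *Wnt11*, and *Rspo2* passed the filter only through the E18.5 libraries, so a higher level there was built into their being tested. The other 5, *Wnt2b*, *Wnt4*, *Wnt5b*, *Wnt9a*, and *Rspo1*, were higher in E18.5 than in E14.5 CD54+CD31- libraries. Over the wider pathway, 14 of the 80 genes tested by age passed only through the group in which they were higher, and of the other 66, 39 were higher and 14 lower at E18.5, beside 35.9% and 33.5% of all genes.

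At E18.5 the ligands with the highest levels were *Rspo1* (26.7 to 34.9 CPM), *Wnt7b* (22.9 to 35.6), *Wnt3a* (20.9 to 37.8), and *Wnt7a* (14.9 to 25.5), none of which exceeded 0.491 CPM in CD324+ libraries. *Wnt4* had 7.60 to 16.6 CPM, *Wnt5a* 7.01 to 13.1, *Wnt9a* 7.08 to 11.2, and *Wnt11* 3.27 to 3.78. *Nkd1* had 184 to 276 CPM and *Wls* 133 to 217. *Wnt7b* is known from lung epithelium, and the lung epithelial sum of these libraries is given above. *Wnt4* was lowest in E18.5 replicate 1, and *Wnt3a*, *Wnt7a*, *Wnt7b*, and *Rspo1* were highest there. *Tbx3* (7.77 to 8.74 CPM), *Lect2* (0.436 to 7.24), *Rhbg* (0.0283 to 0.0763), *Ccnd1* (21.5 to 25.7), and *Tcf7* (3.98 to 5.67) were lower than at E14.5. *Cyp2e1* was higher, at 1.02, 17.2, and 22.0 CPM in replicates 1, 2, and 3, with the lowest value in the library of the lowest hepatoblast sum. *Sp5* had 8.38, 3.89, and 4.01 CPM in these replicates, against 1.25 to 1.35 in CD324+ libraries, and *Glul* 88.0, 122, and 137 against 243 to 271.

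**Figure D5:**
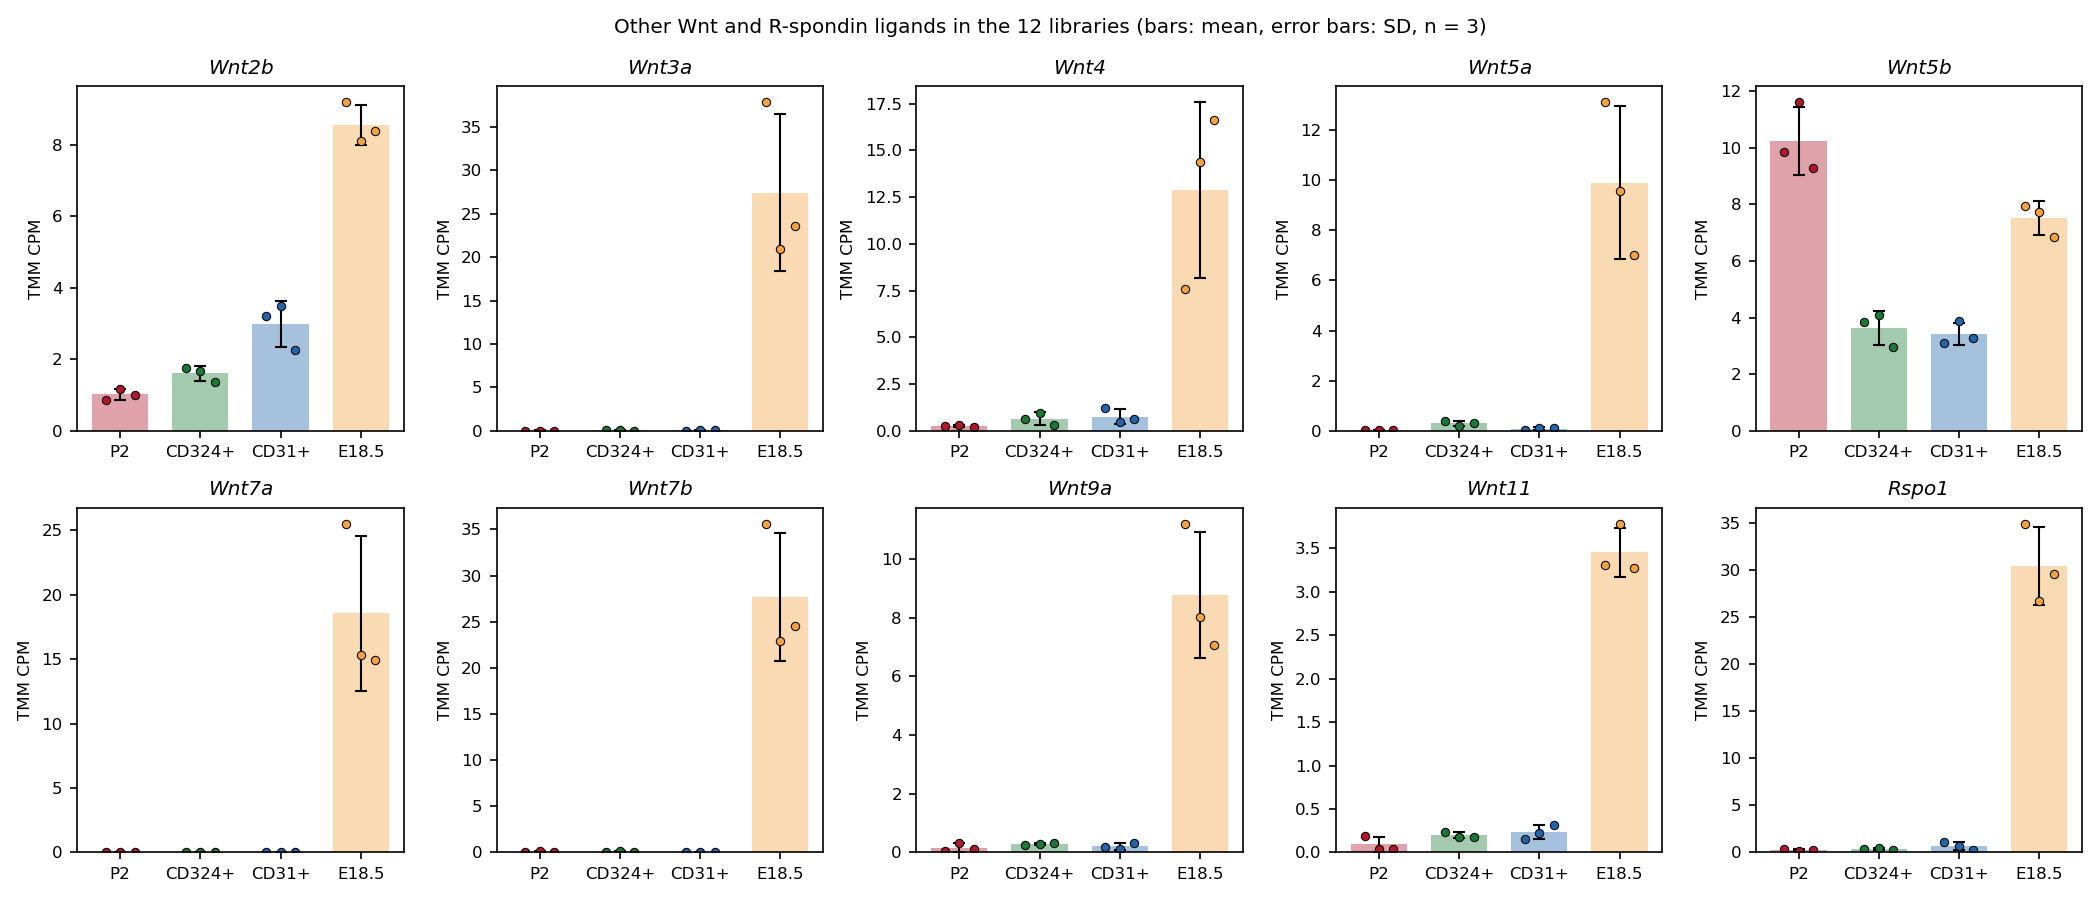
TMM-normalized CPM (linear axes from 0, scaled per gene) of the 10 other Wnt and R-spondin ligand genes that reached a mean of 1 CPM in a group, with a point per library, bars for the mean, and error bars for the SD (n = 3, cut at 0). *Wnt5b* is highest in P2 libraries (9.27 to 11.6 CPM), and the other 9 genes are highest in E18.5 CD54+CD31- libraries.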

How the data were processed

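RNA from sorted FL cells was sequenced after enzymatic removal of ribosomal cDNA. Per the labels and the submitters' processing notes, the authors trimmed reads with cutadapt 1.11, aligned them to GRCm38 with STAR 2.5.0a, and counted them per gene with featureCounts 1.4.6-p3. The authors deposited raw counts and, as a second column, a score that is the count times 1 normalization factor per library, rounded. The annotation release, the strand setting, and the treatment of reads with several alignments are not given in the sources used here. The study describes 3 independent litters for the E14.5 cells. It does not describe the E18.5 libraries, so their litters are not known here. The p-values measure the spread between the libraries of each group.

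Counts were tested in R 4.3.3 with edgeR 4.0.16 (TMM, filterByExpr, quasi-likelihood test, Benjamini-Hochberg adjustment over all genes tested, threshold 0.05). One fit held the 9 E14.5 libraries and another the 6 CD54+CD31- libraries, whereas levels were normalized over all 12, so that ratios of levels and fold changes differ slightly. Each SE is the size of the log2 fold change divided by the square root of F. Intervals of count ratios cover counting error only. Exon lengths and positions came from GENCODE vM21, in which 37932 of the 38127 identifiers were found. The scripts were tested on simulated counts.

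The 9 genes, the role and marker lists, and the tests were chosen with earlier results of these data known. Named were the 9 genes, up to 5 role genes per direction and comparison with the largest change among those called without overlap, other ligands with a mean of 1 CPM in a group, the 3 genes most like each of the 9, and the first markers of each list. Further names were added after their values were seen. Alternatives were DESeq2's size factors, library totals, DESeq2 1.42.0, no low count filter, 10 counts in every library, genes above 1% of a library left out, a fit of all 12 libraries, fits of each pair of E14.5 groups alone, the replicate block, and each library left out. A further alternative, the authors' factors, was chosen after seeing the data. Replicate numbers come from the labels. Deviations of same-numbered CD31+ and CD324+ libraries from their group means correlated across genes (0.36, 0.284, and 0.154), so these numbers were taken as pairs. The values given for this comparison come from the fit by group alone, without the pairs, unless an alternative is named. The fit with the replicate block changed no call of the 9 genes in this comparison.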

Additional observations from a re-analysis of the deposited data

How the results depend on the processing

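Of the alternatives for single genes, 531 left the direction and the side of the threshold as they were, 17 lost a call, 3 gained one, and 5 changed the sign of a difference that had not passed. The sign changes were *Lgr4* and *Axin2* in P2 against CD31+ cells without CD31+ replicate 3 (0.01 and 0.24, within ranges of -0.15 to 0.01 and -0.45 to 0.24 over the left-out libraries), *Tcf7l2* in CD31+ against CD324+ cells (-0.15 without CD324+ replicate 2 and -0.03 without CD31+ replicate 1, range -0.15 to 0.20), and *Tcf7l2* by age with library totals alone (0.06). With at least 10 counts in every library, 4 of the 9 genes were called for P2 against CD31+ cells and 5 for CD31+ against CD324+ cells, because only 6 of the 9 were then tested. The authors' values kept the order of the 4 groups for 8 genes, and library totals for 6. Library totals moved the median log2 fold change of all genes by 0.37 (P2 against CD324+), -0.13 (P2 against CD31+), 0.49 (CD31+ against CD324+), and 0.42 (by age), and the authors' factors by -0.26, -0.37, 0.11, and 0.24. The fit of all 12 libraries moved the median by age by -0.17.

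With the replicate block, 10910, 11460, 10326, and 10329 genes were called in the 4 comparisons, and *Lef1* in CD31+ against CD324+ cells had 1.23 (edgeR adjusted p = 0.0471, range 0.00365 to 0.131 over 15 alternatives). Same-numbered libraries correlated at 0.046, -0.047, and 0.12 between P2 and CD324+ and at -0.009, 0.041, and 0.354 between P2 and CD31+ libraries. Between E18.5 and E14.5 libraries the values were 0.044, 0.011, and 0.025. These numbers were not taken as pairs, but low correlations cannot show that libraries share no litter. The 0.354 of P2 and CD31+ replicate 3 was near the 0.36 of CD31+ and CD324+ replicate 1. With the CD31+ and CD324+ numbers taken as pairs, the block changed no call of the 9 genes in that comparison. The low counts of *Wnt9b* outside CD31+ cells and 3 libraries per group limit the precision.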

Other observations

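The genes whose levels were most like those of the 9 genes were read from Pearson's correlation of log2(CPM + 1) over the 12 libraries, among genes with a mean of at least 1 CPM (13228 genes, or 13229 for *Wnt9b*). The libraries share 4 groups, so any genes that separate the same groups correlate, and the values are descriptions. For *Wnt9b* the nearest were *Sh3bgrl3*, *Sema3g* (0.976 each), and *Chst14* (0.975). *Sema3g*, a secreted semaphorin, had a mean of 9.91 CPM in CD31+ libraries and at most 0.813 in the other groups. For *Wnt2* they were *Foxj2* (0.991), *Rab12* (0.990), and *Plec* (0.986), and for *Rspo3* *Ccdc3* (0.971), *9030617O03Rik* (0.966), and *Col25a1* (0.965).

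For *Lgr5* the nearest were *Alk* (0.993), *Icosl* (0.992), and *Grik4* (0.991), and for *Lgr4* *Pter* (0.983), *Timd2*, and *Kmo* (0.982 each). *Alk*, which encodes a receptor tyrosine kinase, had a mean of 5.13 CPM in CD324+ libraries and at most 1.10 in the other groups. *Kmo*, an enzyme of tryptophan breakdown, had 81.3 CPM in CD324+ libraries and at most 9.15 elsewhere. For *Axin2* they were *Cited2* (0.978), *Lipg* (0.977), and *Tgm1* (0.976), for *Znrf3* *Lrba* (0.997), *Cry2* (0.988), and *Fasn* (0.987), for *Lef1* *S100a11* (0.964), *Ncf1*, and *Pi16* (0.961 each), and for *Tcf7l2* *Mfhas1* (0.995), *Il15* (0.994), and *Raph1* (0.991). Over the 9 E14.5 libraries alone, 4 of these 27 genes stayed among the nearest 3: *Foxj2*, *Lrba*, *Mfhas1*, and *Il15*.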
